A study of Mus musculus with 7 samples.

Results

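Interferon-stimulated genes are the genes that a cell transcribes more when it senses an interferon, a cytokine released on viral and other infections. A set of 46 such genes was chosen by gene symbol, as antiviral and interferon-response genes known to vary between mouse strains, and their values were read from the 43346 genes with allele counts in growth plates of F1 mice. All 46 were found by their Ensembl identifiers. Each mouse had some counts for every one of them, so all were tested, and for 41 the alleles together gave 10 counts or more in each mouse. All of them are autosomal and they lie on 15 chromosomes. The set is a list of genes, not of cells, and growth plates hold chondrocytes beside other cell types.

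The mice were 7 males from a cross of C57BL/6J (B6), the reference laboratory strain, and CAST/EiJ (CAST), an inbred strain derived from wild Mus musculus castaneus. They were 21 d old, and no treatment is given for any of them, so they form 1 group and carry the numbers 1, 2, 3, 4, 5, 7 and 8. RNA was taken from the proximal and distal tibial growth plates, the cartilage in which a long bone lengthens, and the labels name the cells as chondrocytes. Each mouse has a B6 and a CAST copy of every autosome in the same nuclei. The question for each gene was therefore whether the alleles gave unequal RNA counts, which is called allele-specific expression (ASE). Transcription itself was not measured. The labels do not say which strain was the mother, so an effect of the strain cannot be told apart from one of the parent of origin.

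Type I interferons bind a receptor made of IFNAR1 and IFNAR2, whose kinases JAK1 and TYK2 start a signal that is carried to the nucleus. There a complex that holds STAT2 and IRF9 binds the interferon-stimulated response element (ISRE) in the promoters of target genes. Interferon gamma acts through another receptor and through gamma-activated sites (GAS) in the promoters of its targets. Many of the targets block a step of viral replication, others sense foreign RNA or DNA, and several of them occur as clusters of copies that arose by gene duplication.

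Depth ranged from 14098019 counts in mouse 7 to 37849667 in mouse 5, with a median of 27603769. The study's methods state fewer reads per sample on average than the deposited counts sum to, and lanes and read ends were quantified separately. A count may therefore not stand for an independent read pair, and counting error may be larger than the counts show. The B6 allele took 49.4% to 49.7% of the counts of autosomal genes. Together the 46 genes held 0.0404% to 0.0538% of a mouse's counts, with a median gene mean of 114 counts and a range of means from 7.71 to 2062. A gene's total is whole when no read was divided between genes. This held in every mouse for 16 of the 46 genes and in no mouse for Parp9, Trim30a, Ddx58, Dtx3l, Ifit3b, Ifi204, Ifit3 and Igtp. For 30 of the 46 the total was not whole in at least 1 mouse, and among all 21805 genes tested the share of such genes was 51.4%. Exons of 7 of the genes overlap another gene on the same strand and those of 11 overlap one on the other strand. Chondrocyte markers summed to 60060 to 96768 counts per 1e6 counts of the mouse (CPM), and all 8 of them were detected in every mouse.

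The promoters of these genes in the reference sequence were searched for the elements named above. RefSeq promoters (GRCm38.p6), 300 bases each from 250 before to 50 after the start of transcription, were found for 34 of the 46 genes. Mx1, Mx2, Oas1b, Oas2, Dhx58, Ifi204, Usp18, Parp9, Parp14, Rtp4, Ifi27 and Ifi27l2a had no entry. The core of the ISRE, TTTC followed after any 2 bases by a further TTTC, on either strand, was present for 20 of the 34 genes (58.8%) and for 3.99% of the 27025 genes with a promoter in the table. The GAS, TTCNNNGAA on either strand, was present for 10 of the 34 (29.4%) and for 9.55% of all genes with a promoter. The letters of these motifs can overlap each other, and 6 of the genes held both. At least 2 ISRE matches were found in 10 of the genes. A match describes the letters of the B6 reference in this window and is not evidence of binding. The windows below are those of 3 genes with more CAST counts and 3 with more B6 counts, each written 5′ to 3′ on the gene's strand, with the matched letters in capitals.
Isg15: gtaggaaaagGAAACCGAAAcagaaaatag
Rsad2: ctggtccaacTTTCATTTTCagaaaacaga
Gbp3: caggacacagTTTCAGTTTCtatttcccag
Ifit3: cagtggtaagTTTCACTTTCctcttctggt
Bst2: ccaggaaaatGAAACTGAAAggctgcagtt
Irgm1: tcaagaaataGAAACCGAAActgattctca
These windows are at chr4:156200871-156200900 (minus strand), chr12:26456553-26456582 (minus strand), chr3:142559989-142560018 (plus strand), chr19:34583363-34583392 (plus strand), chr8:71537577-71537606 (minus strand) and chr11:48871425-48871454 (minus strand), in the order given. Isg15 is the gene with most ISRE matches, 3, which overlap one another. The Ifit3 window is also found, letter for letter, at chr19:34607759-34607788 in the promoter of its copy Ifit3b, and both of their ISRE windows are identical. A match to the ISRE core was present in 11 of 17 genes with ASE (defined next) and in 9 of 17 without.

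ASE was tested for every gene with edgeR's likelihood-ratio test, CAST over B6, and called at a false discovery rate (FDR) under 0.20 after Benjamini-Hochberg adjustment over all 21805 genes tested. It was called for 25 of the 46 interferon-stimulated genes (54.3%), against 32.6% of all genes tested. CAST counts were higher for 13 of them (28.3%, background 15.4%) and B6 counts for 12 (26.1%, background 17.2%). The background includes X-linked genes, while all 46 genes are autosomal. When only autosomal genes were fitted the background was 30.5%, with 14.9% higher from CAST and 15.7% from B6. At an FDR under 0.05 the number was 18, against 22.1% of all genes, with 10 higher from CAST (background 10.1%) and 8 higher from B6 (background 12.0%). Since the genes were chosen partly for known strain variation, these shares describe the set and are no independent evidence about it. The median log2 fold change was 0.02, beside 0.01 for all genes, and the median of its size without the sign was 0.45, beside 0.22. It exceeded 1 in size for 13 of the 46 genes (28.3%), and for 15.8% of all genes tested. Genes higher from CAST and genes higher from B6 were thus about equal in number.

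The mice gave the same direction for many of these genes. All 7 mice had more counts from the same allele for 16 of the 46 genes (34.8%, background 22.8%), of which 11 were higher from CAST (background 9.83%) and 5 from B6 (background 13.0%). ASE was called for all 16. For such a gene the exact sign-flip permutation test over the 7 mice always gives p = 0.0156, the smallest that 7 mice allow. This unadjusted p-value restates the shared direction and adds no support to it. Across mice the counts of the alleles still overlapped for 15 of these 16 genes. Mx2 was the only one whose CAST counts in every mouse were above its B6 counts in every mouse. These ranges are of raw counts and widen with the differences in depth. The share of all tested genes without overlap was not computed, so this count is a description only.

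**Figure D1:**
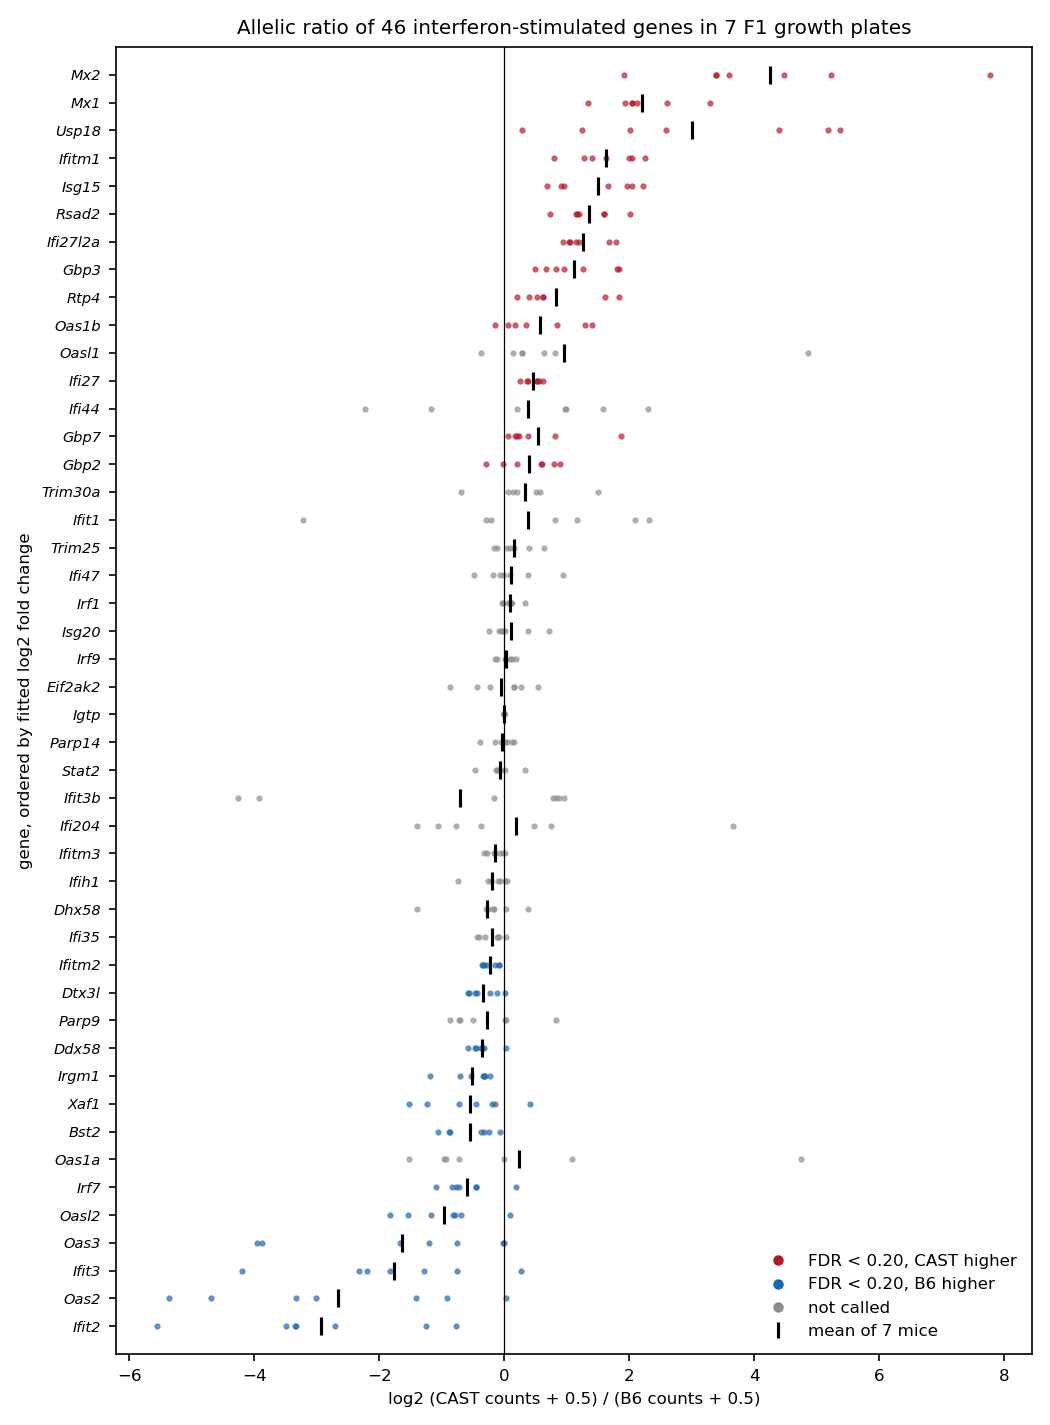
Log2 of (CAST counts + 0.5) over (B6 counts + 0.5) on the horizontal axis for each of the 46 genes, 1 point per mouse and a bar at the mean of 7 mice, in the order of the fitted log2 fold change; colours mark the 13 genes called with CAST higher, the 12 called with B6 higher and the 21 not called. Mx2 at the top and Ifit2 at the bottom have every mouse on 1 side of 0, and the points of Igtp all lie at 0.

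The dynamin-like Mx GTPases assemble on viral nucleoproteins, MX1 in the nucleus and MX2 in the cytoplasm, and both genes had far more counts from CAST. They lie on chromosome 16, Mx1 at 97447035 to 97462907 and Mx2 at 97535308 to 97560900 (GRCm38/mm10). GENCODE classes Mx2 as a polymorphic pseudogene, meaning that the reference strain carries a disabled copy. Mx2 had 31.4 to 158 CAST counts per mouse (median 85.9) and 2.75e-05 to 14.6 B6 counts (median 2.83). The lowest CAST value, in mouse 7, was thus above the highest B6 value, in mouse 5. CAST held 93.0% ± 6.59 (SD, n = 7 mice) of the Mx2 counts, and the fitted log2 fold change was 3.95 (FDR 1.67e-27). Mx1 had 23.9 to 153 CAST counts (median 58.8) and 5.91 to 34.6 B6 counts (median 11.3). CAST counts were higher within every mouse, although the highest B6 value, in mouse 5, was above the lowest CAST value, in mouse 7. The CAST share of Mx1 was 81.9% ± 5.88 (SD, n = 7) and its log2 fold change 2.20 (FDR 4.1e-13). Totals of both genes were whole in only 1 mouse, so some of their reads were divided with other genes.

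**Figure D2:**
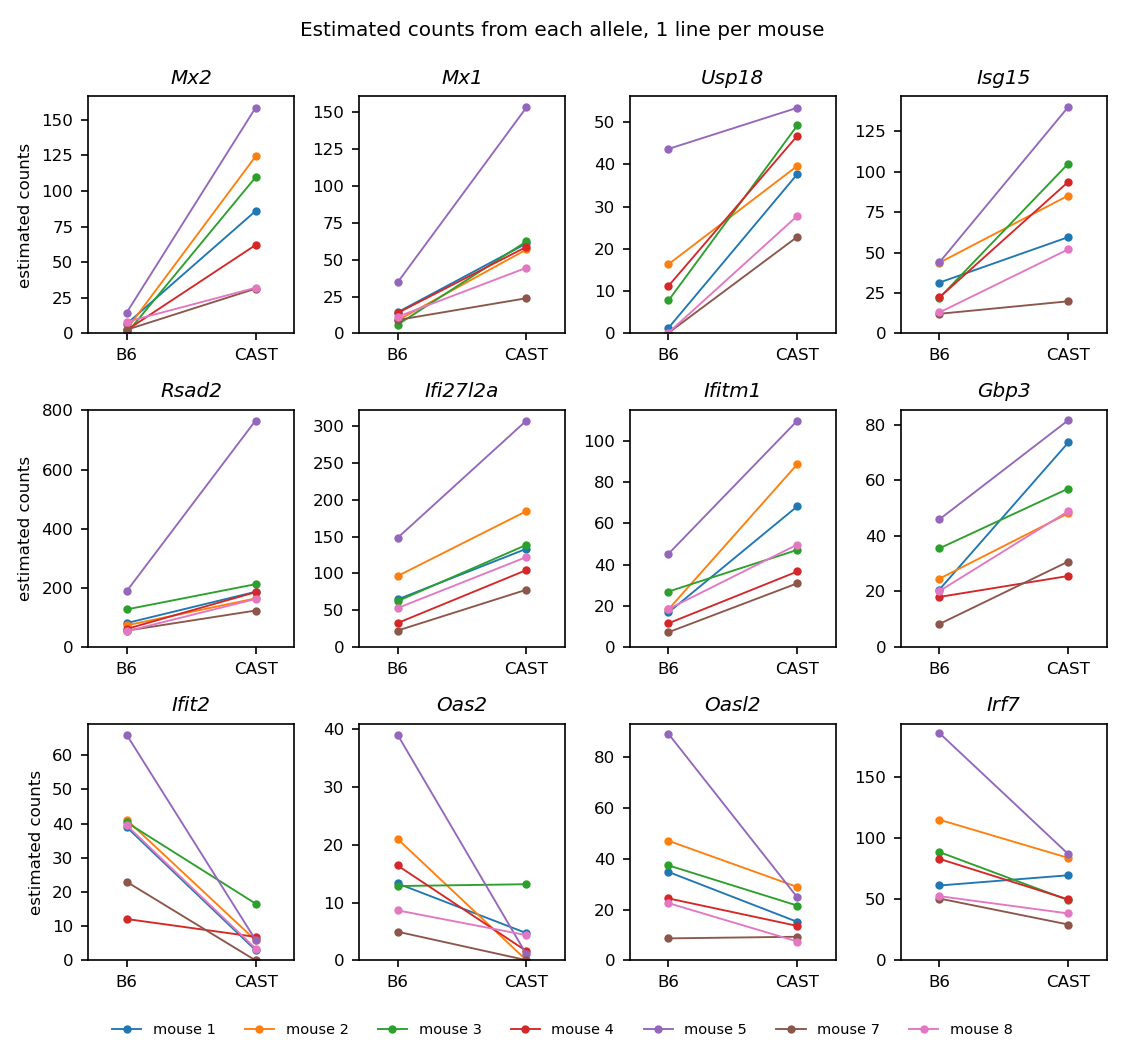
Estimated counts from the B6 and the CAST allele of 12 of the genes with ASE, with 1 line per mouse and a separate linear axis from 0 for each gene. Lines of Mx2, Mx1, Usp18, Isg15, Rsad2, Ifi27l2a, Ifitm1 and Gbp3 go up towards CAST in all 7 mice, those of Ifit2 go down in all 7, and those of Oas2, Oasl2 and Irf7 go down in 6 of 7.

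The IFIT proteins bind viral RNA that lacks the host's cap methylation, or the complexes that start its translation, and their 4 genes lie together on chromosome 19. Here ASE was called for 2 of 4 genes (background 32.6%), both with B6 higher (background 17.2%). Ifit2 (34550694 to 34576419) had 2.2e-05 to 16.6 CAST counts per mouse, with a median of 5.87, and 12.1 to 66.0 B6 counts, with a median of 39.5. B6 counts were higher in all 7 mice, and the ranges met only through mouse 3, with the highest CAST value, and mouse 4, with the lowest B6 value. The CAST share was 14.5% ± 13.1 (SD, n = 7) and the log2 fold change -2.56 (FDR 1.01e-11). Ifit3 had 0.394 to 19.4 CAST counts (median 9.0) and 7.42 to 44.7 B6 counts (median 24.2), with more from B6 in all mice but mouse 7. Its log2 fold change was -1.53 (FDR 4.41e-05). In no mouse was the total of Ifit3 or Ifit3b whole, so the split between these near-identical copies rests on the authors' model. Ifit3b and Ifit1 had few counts, 4.88 to 25.6 and 2 to 31 per mouse. They were not called, with log2 fold changes of -0.04 and 0.34 that changed sign when single mice were left out. Counts this few may hide a difference of moderate size. Oas2, with 5 to 40 counts per mouse, was called at a log2 fold change of -2.10.

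The OAS proteins make 2′-5′-linked oligoadenylates on double-stranded RNA and so switch on the RNase that degrades it, while OAS-like proteins share the fold. ASE was called for 4 of these 6 genes on chromosome 5 (background 32.6%), with B6 higher for 3 of the 6 (background 17.2%). Oas2 (120730333 to 120749853) had 0.0238 to 13.2 CAST counts (median 1.60) and 4.96 to 39.0 B6 counts (median 13.3). Mouse 3 alone had slightly more from CAST. The log2 fold change was -2.10 (FDR 0.000462), and it was -1.70 without mouse 5 and -2.94 without mouse 3. Oas3, its neighbour, had 1.72 to 107 CAST counts (median 18.2) and 11.5 to 109 B6 counts (median 53.2). B6 was higher in every mouse, but by almost nothing in mice 5 and 8, and the spread of its log2 ratio over mice was correspondingly wide, -1.64 ± 1.66 (SD, n = 7). Its fitted log2 fold change was -1.14 (FDR 0.0684). Oasl2 had 7.44 to 28.9 CAST counts (median 15.2) and 8.68 to 89.2 B6 counts (median 34.8), with more from B6 in all mice but mouse 7. Its log2 fold change was -1.02 (FDR 0.0028).

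Oas1b, the gene whose loss in common laboratory strains leaves them susceptible to flaviviruses, went the other way. It is classed by GENCODE as a polymorphic pseudogene (120812635 to 120824163). It had 13.8 to 67.2 CAST counts (median 22.5) and 11.4 to 27.2 B6 counts (median 16.7), with more from CAST in 6 of 7 mice. The log2 fold change was 0.64 (FDR 0.0590), and it was not called without mouse 1 (FDR 0.217) or without mouse 5 (FDR 0.264). Oas1a and Oasl1 were not called, with fitted log2 fold changes of -0.53 and 0.47. For Oas1a the mean of the mice's log2 ratios had the other sign, 0.24 ± 2.16 (SD, n = 7), because mouse 1 had 15.4 CAST counts and 0.0890 B6 counts. Oas1a had 8.0 to 80.5 counts per mouse and Oasl1 had 11 to 64.

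Among the sensors and the transcription factors of the pathway, ASE was called for 1 of 4 genes each (background 32.6%). Both were higher from B6 (background 17.2%). Of the 4 sensors of foreign RNA and DNA, only Ddx58, which encodes RIG-I, was called. It had 64.0 to 200 CAST counts (median 117) and 96.0 to 275 B6 counts (median 159). B6 was higher in all mice but mouse 4, the ranges overlapped widely, and the log2 fold change was -0.34 (FDR 0.0369). The other sensors were Ifih1 (MDA5), Dhx58 (LGP2) and the DNA sensor Ifi204. Their log2 fold changes lay between -0.16 and -0.13, with FDRs of 0.665 to 0.937. Among the 4 transcription factors, Irf7, the amplifier of interferon alpha transcription, was called. It had 29.4 to 87.0 CAST counts (median 49.9) and 50.6 to 186 B6 counts (median 83.1). All mice but mouse 1 had more from B6, and the log2 fold change was -0.62 (FDR 0.0162). Exons of Irf7 overlap those of Phrf1 on the other strand. Irf9 and Stat2, parts of the complex that binds the ISRE, had log2 fold changes of 0.06 and -0.03 and FDRs of 0.890 and 0.971. Irf1, induced most by interferon gamma, had a log2 fold change of 0.12 (FDR 0.556), and it was called in the fit with the mouse as a block (log2 fold change 0.13, FDR 0.0506).

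Both called genes of the ISG15 system proper had more CAST counts. ISG15 is a ubiquitin-like protein that is joined to other proteins, and USP18 removes it again and also dampens signalling at the interferon receptor. Isg15 (chromosome 4, 156199424 to 156200818) had 19.9 to 140 CAST counts per mouse (median 85.3) and 12.1 to 43.9 B6 counts (median 22.2). CAST was higher in all 7 mice, with a share of 73.3% ± 8.54 (SD, n = 7) and a log2 fold change of 1.59 (FDR 6.08e-08). Usp18 (chromosome 6, 121245906 to 121270917) had 22.9 to 53.4 CAST counts (median 39.6) and 0.142 to 43.6 B6 counts (median 7.79). Mouse 5 held the highest B6 value and its CAST share was closest to equal, while mice 7 and 8 had nearly no B6 counts. The log2 fold change of Usp18 was 2.03 (FDR 0.00127) with all mice, 2.69 without mouse 5 and 2.99 (FDR 0.00161) with the mouse as a block.

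The other genes of this group encode ubiquitin ligases and ADP-ribosyltransferases. Dtx3l, a ligase that works with PARP9, was called with a log2 fold change of -0.30 (FDR 0.152). It had 60.1 to 233 CAST counts (median 91.8) and 89.7 to 274 B6 counts (median 136), with more from B6 in all mice but mouse 1. Without mouse 2, 4, 7 or 8 its FDR was 0.252, 0.237, 0.311 or 0.265, and the call was lost, as it was with raw library sizes (FDR 0.237). Exons of Dtx3l and Parp9 overlap on opposite strands, and neither total was whole in any mouse. Parp9 had a similar log2 fold change, -0.30 (FDR 0.208), and was called without mouse 2 (FDR 0.188), mouse 7 (FDR 0.0251) or mouse 8 (FDR 0.198). Trim25, the ligase that modifies RIG-I, had 493 to 1462 counts per mouse and a log2 fold change of 0.15 (FDR 0.414). Parp14 was close to equal at -0.03 (FDR 1). Trim30a had 0.37 (FDR 0.270) and was called without mouse 3 (FDR 0.100).

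Guanylate-binding proteins (GBPs) and immunity-related GTPases (IRGs) attack the vacuoles in which bacteria and parasites live and are induced above all by interferon gamma. The 3 GBP genes of the set, each within 100 kb of the next on chromosome 3, were all called with more CAST counts (background 15.4%). Gbp3 (142560026 to 142573209) had 25.5 to 81.6 CAST counts (median 48.9) and 8.25 to 45.9 B6 counts (median 20.6). Every mouse had more from CAST, and the log2 fold change was 1.11 (FDR 1.73e-07). Gbp7 had 38.8 to 123 CAST counts (median 77.4) and 10.2 to 75.7 B6 counts (median 65.9), also with more from CAST in every mouse. Its log2 fold change was 0.44 (FDR 0.0536), and its FDR without mouse 5 was 0.219. Gbp2 had 22.4 to 65.4 CAST counts (median 37.6) and 14.6 to 40.4 B6 counts (median 36.0), with more from CAST in 5 of 7 mice. Its log2 fold change of 0.42 (FDR 0.0933) was no longer called without mouse 3 (FDR 0.219), mouse 4 (FDR 0.262) or mouse 5 (FDR 0.292).

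Of the 3 IRG genes on chromosome 11, Irgm1 was higher from B6 and the others were not called. Irgm1 had 33.4 to 122 CAST counts (median 63.7) and 42.5 to 176 B6 counts (median 89.4). All 7 mice had more from B6, although the ranges overlapped, and the log2 fold change was -0.49 (FDR 0.00834). Ifi47 had 56 to 215 counts per mouse and a log2 fold change of 0.15 (FDR 0.736). Igtp, whose exons overlap those of Irgm2 on the same strand, had exactly equal counts for both alleles in all 7 mice, 48.7 to 147 each. Equal counts arise where no read tells the alleles apart, so Igtp carries no information on ASE.

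The small membrane proteins IFITM1, IFITM2 and IFITM3 hinder the fusion of virus and cell, and their genes lie within a short stretch of chromosome 7. Ifitm1 (140967221 to 140969825) had 30.9 to 110 CAST counts (median 49.7) and 7.14 to 45.2 B6 counts (median 18.2). CAST was higher in all 7 mice, with a share of 75.4% ± 6.83 (SD, n = 7) and a log2 fold change of 1.62 (FDR 8.47e-12). Ifitm2 was by far the more abundant, with 559 to 1305 CAST counts (median 952) and 591 to 1580 B6 counts (median 1192). B6 was higher in all 7 mice, by a small amount in each. Its log2 fold change was -0.21 (FDR 0.164). Between -0.24 and -0.18 with any mouse left out, it was not called without mouse 2 (FDR 0.320), mouse 5 (FDR 0.283) or mouse 8 (FDR 0.312), and with no filter on low counts (FDR 0.201). Ifitm3 had 286 to 904 CAST counts (median 597) and 284 to 917 B6 counts (median 626). It was not called (log2 fold change -0.13, FDR 0.430), and it was in the fit with a block for the mouse (FDR 0.0493). Totals of the 3 genes were whole in only 2 mice.

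Among the remaining effectors ASE was called for 6 of 10 (background 32.6%). Rsad2 encodes viperin, which makes a chain-terminating nucleotide, and it had 123 to 766 CAST counts (median 185) and 53.1 to 188 B6 counts (median 72.9). Each mouse had more from CAST. Mouse 5, the deepest, had the most counts from both alleles. The others had at most 212 from CAST and 127 from B6, without adjustment for depth. The log2 fold change was 1.45 (FDR 2.34e-07). Ifi27 and Ifi27l2a encode small mitochondrial and nuclear-envelope proteins and are neighbours on chromosome 12. Ifi27l2a had 77.8 to 308 CAST counts (median 133) and 22.2 to 148 B6 counts (median 62.2), and its log2 fold change was 1.23 (FDR 8.48e-09). Ifi27 had 270 to 875 CAST counts (median 613) and 189 to 736 B6 counts (median 401), and its log2 fold change was 0.46 (FDR 0.00038). CAST was higher in all 7 mice for both, and the CAST share of Ifi27 varied little, 57.9% ± 2.18 (SD, n = 7). Rtp4, which encodes a chaperone of receptors, had 8.62 to 40.9 CAST counts (median 20.1) and 4.94 to 28.1 B6 counts (median 9.53). All mice had more from CAST, and the log2 fold change was 0.87 (FDR 0.0175).

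The B6 allele gave more counts for Bst2 and Xaf1. Bst2 encodes tetherin, which holds budding virus at the cell surface, and it had 33.8 to 108 CAST counts (median 80.4) and 71.2 to 196 B6 counts (median 104). All 7 mice had more from B6, and the log2 fold change was -0.51 (FDR 0.00164). Xaf1, a promoter of cell death, had 17.1 to 65.1 CAST counts (median 33.7) and 24.4 to 97.3 B6 counts (median 48.9), with more from B6 in all mice but mouse 1. Its log2 fold change of -0.50 (FDR 0.0986) was not called without mouse 3 (FDR 0.398) or mouse 5 (FDR 0.240). The 4 effectors not called were Ifi35, Isg20, Eif2ak2 and Ifi44. Ifi35 had a log2 fold change of -0.17 (FDR 0.374), and it was called with the mouse as a block (FDR 0.0461). Isg20, an exonuclease, had 0.11 (FDR 0.773), and Eif2ak2, the kinase PKR that halts translation, had 0.02 (FDR 1). Ifi44 had 1.00 to 13 counts per mouse, too few to show a difference of moderate size (log2 fold change 0.46, FDR 0.688).

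Allelic ratios were also compared between neighbouring genes. The 46 genes form 15 pairs of neighbours within 100 kb, and the difference of the log2 ratios within each mouse was set against all flips of sign over the 7 mice (exact permutation test, two-sided). The difference had the same sign in all 7 mice for 6 pairs (40.0%, exact permutation test, p = 0.0156, adjusted over the 15 pairs p = 0.0391). Any pair with the same sign in all 7 mice gives this p-value, so it restates the shared sign and adds no support to it. Among consecutive tested autosomal genes within 100 kb of each other, taken whether members of the set or not, the share was 19.8%. Other genes can lie between the 2 genes of a pair from the set, so these shares are over unlike pairs. The 6 pairs are not independent, since 2 of them share Ifitm1. The Ifitm2 ratio minus the Ifitm1 ratio was -1.86 ± 0.544 (SD, n = 7), and for Ifitm1 minus Ifitm3 it was 1.77 ± 0.565. The Oasl2 ratio minus the Oasl1 ratio was -1.92 ± 1.81, and for Oas3 minus Oas1b it was -2.21 ± 1.74. For Ifi27 minus Ifi27l2a the difference was -0.80 ± 0.337, with both genes higher from CAST. For Parp14 minus Dtx3l it was 0.30 ± 0.324. Mx1 minus Mx2 was -2.05 ± 1.39, with Mx1 lower in 6 of 7 mice (exact sign-flip permutation test, p = 0.0312, adjusted p = 0.0670). Ifit3 minus Ifit3b, copies between which reads were divided, was -1.06 ± 2.83, less than the spread over mice (exact permutation test, p = 0.344, adjusted p = 0.397).

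**Figure D3:**
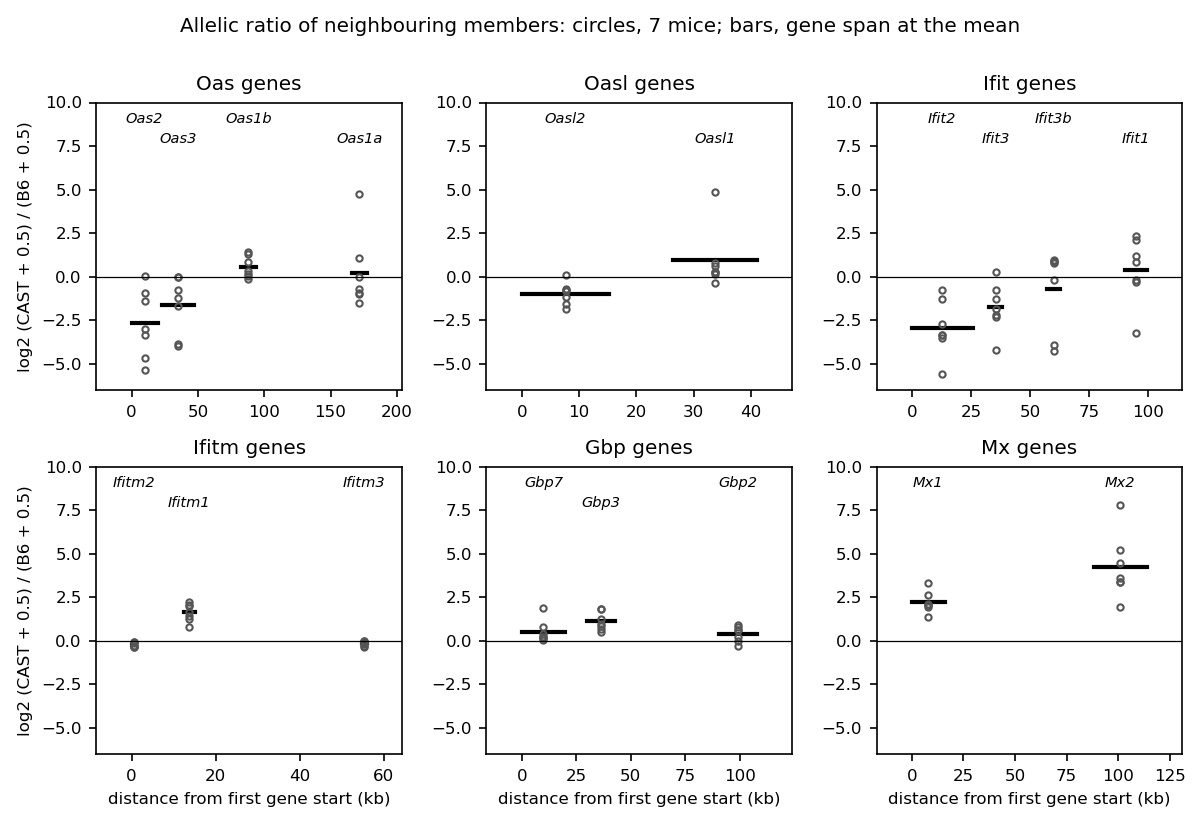
Log2 of (CAST counts + 0.5) over (B6 counts + 0.5) for genes of 6 neighbouring groups, against the distance in kb from the start of the first gene; circles are the 7 mice and horizontal bars span each gene at its mean. Ifitm1 stands above Ifitm2 and Ifitm3 in all 7 mice, and the 3 Gbp genes and both Mx genes have means above 0.

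Levels of the genes, both alleles added, were put on a common scale as CPM per kilobase of exon. They spread widely, and most of the genes were low. The highest were Ifitm2 at 120.6 ± 9.11 (SD, n = 7, range 108 to 137), Ifitm3 at 65.0 ± 5.58 (56.9 to 72.1) and Ifi27 at 25.8 ± 2.44 (22.2 to 29.0). The ranges of these 3 did not overlap. Ifi27l2a followed at 17.4 ± 4.38, and its range of 13.98 to 26.0 overlapped that of Ifi27. The sensors were at 0.375 to 1.47, the OAS genes at 0.162 to 0.919 and the IFIT genes at 0.148 to 0.712, and Ifi44 was lowest at 0.0445 ± 0.0252. The median of the 46 means was 1.15. The coefficient of variation over the 7 mice ran from 6.14% for Bst2 to 64.1% for Ifit1, with a median of 22.6%, and the median over all tested genes was 19.9%.

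Mouse 5 had the highest level for 30 of the 46 genes (65.2%), while it was highest for 15.8% of all genes tested. With library sizes scaled by TMM, edgeR's normalization, it was highest for 26 genes (background 13.5%). Mouse 8 was lowest for 18 of them (background 11.2%). The 46 genes summed to 538 CPM in mouse 5 and to 404 to 444 in the other 6. Rsad2 had a level of 5.81 in mouse 5 against 1.84 to 2.91 in the others. Parp14 had 2.05 against 1.09 to 1.42, and Ifi35 had 9.28 against 7.00 to 7.97.

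Ifitm3, Gbp2, Ifit2 and Usp18 are among the genes that were highest in another mouse. Markers of 10 other cell types that growth plate samples can hold were summed in each mouse, and mouse 5 was highest for 4 of them. Its 6 neutrophil markers summed to 2879 CPM (1343 to 2700 in the others), its 5 erythroid markers to 10730 (4309 to 9855), its 4 T and NK cell markers to 7.77 (3.70 to 7.38) and its 3 plasmacytoid dendritic markers, of which Bst2 is one, to 12.6 (9.24 to 11.3). All markers of these lists were detected in every mouse. Mouse 7 was next in each of these sums. The other lists were highest in other mice, B-lineage markers in mouse 7 (296 CPM, and 270 in mouse 5), macrophage, osteoblast and osteoclast markers in mouse 2 and endothelial and muscle markers in mouse 1. In bulk tissue more cells of a type cannot be told apart from more RNA per cell, and the part of these cell types in the levels was not tested.

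**Figure D4:**
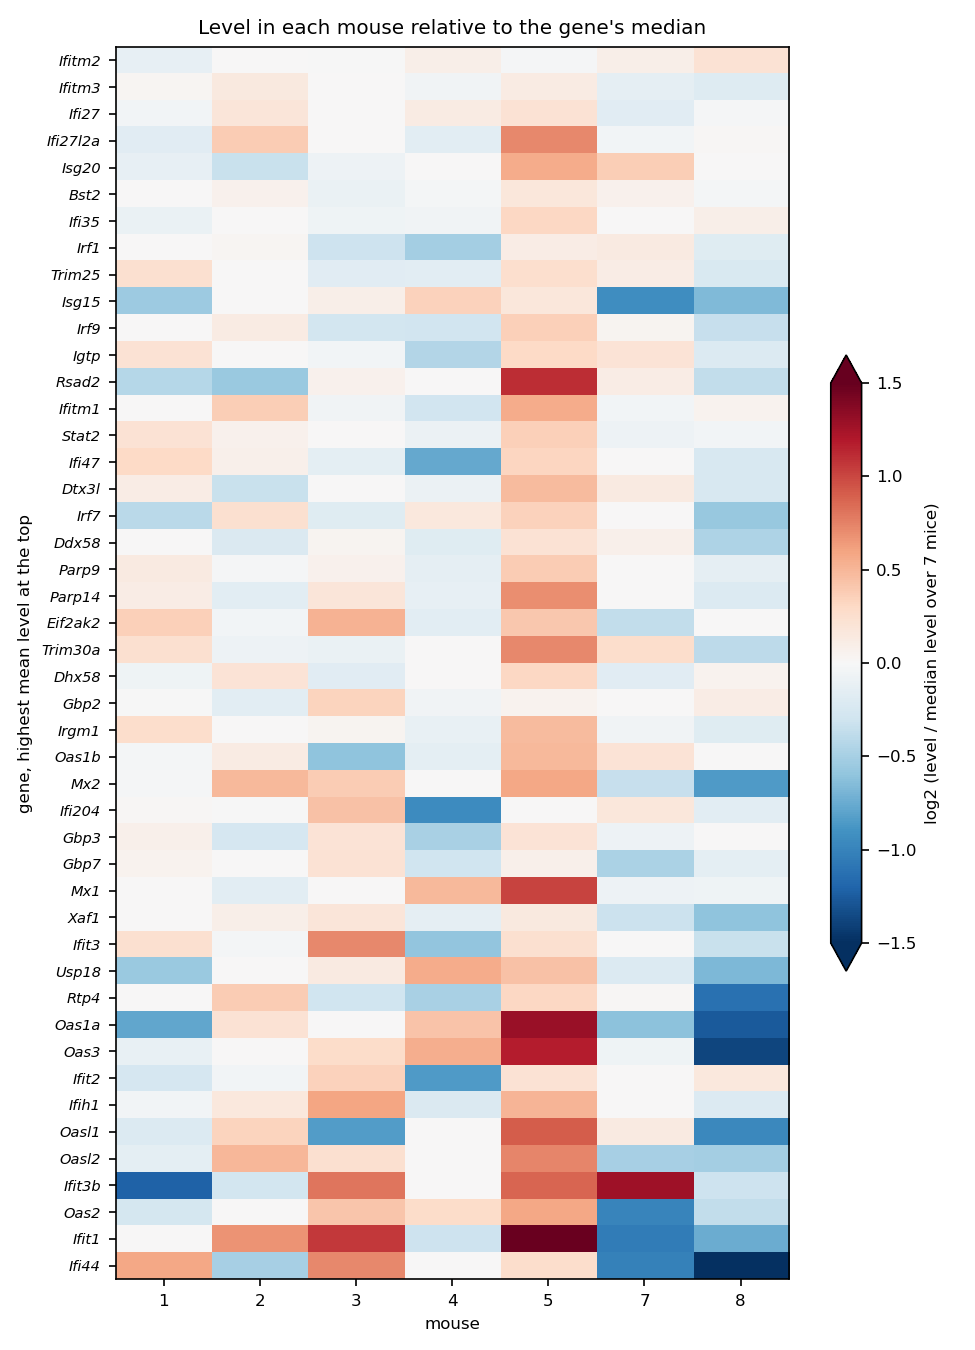
Level of each of the 46 genes (rows, highest mean level at the top) in each of the 7 mice (columns) as the log2 of its ratio to the gene's median over mice, red above and blue below the median. The column of mouse 5 is red for most genes, with 30 of 46 at their highest there, and that of mouse 8 holds 18 lowest values.

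The genes that carry the signal to this set were examined from a list of 35 genes. No count was found in any mouse for Ifnb1, Ifna2, Ifna4, Ifne, Ifnl2 and Ifnl3, and totals were at most 1 count for Ifna1 and Ifng and 6 for Ifnk, so none of the 9 interferon genes was tested. A total of 0 in the deepest mouse allows up to 3 counts in 37849667. The other 26 genes were tested. Of the 25 autosomal ones ASE was called for 7 (28.0%), 3 higher from CAST and 4 from B6. The background was 32.6% of all genes tested and 30.5% when only autosomal genes were fitted. The type I receptor genes Ifnar1 and Ifnar2 were at levels of 7.94 and 8.21 with log2 fold changes of 0.14 and 0.12 (FDR 0.261 and 0.407). Ifngr1, a chain of the interferon gamma receptor, was higher from B6 in all 7 mice (log2 fold change -0.21, FDR 0.0640). So was the other chain, Ifngr2, which was just short of a call (log2 fold change -0.21, FDR 0.2026). The kinase gene Jak2 had 379 ± 123 CAST and 263 ± 92.6 B6 counts (SD, n = 7) and a log2 fold change of 0.55 (FDR 3e-06).

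Jak1, Tyk2 and Stat3 were not called, at log2 fold changes of -0.0005 to 0.10. Of the upstream sensing genes, Ikbke was higher from CAST (0.42, FDR 0.000854). Irf3 (-0.29, FDR 0.0419), Irf5 (-0.32, FDR 0.0850) and Tmem173, which encodes STING (-0.22, FDR 0.185), were higher from B6. Tlr7 had 72.2 ± 27.7 B6 and 6.33 ± 3.81 CAST counts (log2 fold change -3.42, FDR 6.3e-51). It is X-linked and males carry a single X, so this value is not ASE and is not counted here. The CAST share of Tlr7 was 2.38% to 14.5% over the 7 mice. A male's X comes from the mother, so this gene points to B6 mothers, with CAST as the paternal allele. The last called gene, Pias1, an inhibitor of STAT signalling, had a log2 fold change of 0.36 (FDR 0.144) with more from CAST in only 4 of 7 mice.

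Read division bears on how these counts can be read. Among the 16 interferon-stimulated genes whose totals were whole in every mouse, ASE was called for 12, with 7 higher from CAST and 5 from B6, when only genes of that kind were fitted (background 32.6%, and 15.7% and 16.9% by direction). With the mouse as a block, which removes differences between mice shared by both alleles, 28 of the 46 were called (background 42.7%), 14 from each allele (20.9% for CAST and 21.8% for B6), and these include all 25. Without mouse 5, the deepest, the number was 20 (background 29.4%), with 10 from each allele (13.7% for CAST and 15.7% for B6).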

How the data were processed

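RNA-seq values of 7 male F1 growth plates, aged 21 d, were used as 1 group. Per the study's methods, stranded rRNA-depleted libraries were aligned with Bowtie (at most 3 mismatches) to a joint B6 and CAST transcriptome on mm10, and EMASE divided the reads among genes and alleles; whether counting used strand is not given in the sources used here. The authors deposited estimated counts per gene for B6, CAST and their total, without normalization. They need not be whole, and an allele's count includes reads without an allelic difference, so counting error is larger than the counts show. Intervals and limits at a count of 0 cover counting error only.

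The 46 genes and all lists were chosen with earlier results of these data known. A gene left out of the pathway list, for a reason unrelated to its values, is not reported here. A gene was tested when each mouse had a count above 0 from either allele (21805, of which 1406 averaged under 1 count). Counts were rounded to whole numbers and the alleles compared in edgeR 4.0.16 (limma 3.58.1, R 4.3.3), with glmFit and glmLRT, as in the study's methods, TMM factors and estimateDisp with the allele in the design, which the methods do not name, and Benjamini-Hochberg adjustment over all tested genes. CPM are counts per 1e6 counts of the mouse. Log2 ratios per mouse used a pseudocount of 0.5 and an exact sign-flip permutation test of 128 sign patterns. A total was called whole to a tolerance of 1e-04. Gene models came from GENCODE release M21 (GRCm38/mm10, holding 42462 of the identifiers), promoters from RefSeq. Per-mouse values are given for genes called, the 3 most abundant, and those with equal alleles or divided reads, the others by range. Both alleles of a mouse come from the same animal, which is the pairing. Their deviations correlated at 0.06 on average within mice and -0.01 between mice (15111 genes). The lowest value within a mouse was -0.055 and the highest between mice 0.172, so these correlations do not by themselves show the pairing. The mice differed from each other by more than sampling noise.

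Alternatives were DESeq2 1.42.0, the quasi-likelihood test of edgeR, other filters and library sizes, the mouse as a block, genes with whole totals, a pseudocount of 1, an FDR under 0.05 and each mouse left out. A filter on totals above 1e-04, and other library sizes for the highest mouse, were added after the data were seen. Python 3.11.15 with pandas 2.3.3 and matplotlib 3.10.9 made the summaries.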

Additional observations from a re-analysis of the deposited data

Results flagged for a closer look

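Values of 1 mouse stood far from the other 6 (Dixon's test at the 95% level) in 9 of the 92 sets examined, the allelic ratio and the level of each gene, where chance alone gives about 4.6. In the log2 ratio of CAST to B6 counts, mouse 7 was lowest for Dhx58 at -1.39 (others -0.28 to 0.38) and highest for Gbp7 at 1.87 (others 0.06 to 0.82). Mouse 4 was highest for Ifi204 at 3.66 (others -1.39 to 0.74), with 32.6 CAST and 2.13 B6 counts. Mouse 2 was lowest for Ifih1 at -0.74 (others -0.26 to 0.04). Mouse 1 was highest for Oas1a at 4.75 (others -1.53 to 1.09), and mouse 3 for Oasl1 at 4.86 (others -0.36 to 0.81), where all 14 counts were from CAST.

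In the level (CPM per kilobase of exon), all 3 such values were in mouse 5: Rsad2 at 5.81 (others 1.84 to 2.91), Parp14 at 2.05 (others 1.09 to 1.42) and Ifi35 at 9.28 (others 7.00 to 7.97). In Rsad2 the mouse had 766 CAST and 188 B6 counts.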

How the results depend on the processing

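Of the 25 calls, 19 held at an FDR under 0.20 in every alternative fit that included them and without any single mouse, 18 passed an FDR under 0.05, and no called gene changed sign. The calls that were lost are named beside their genes. The number called was 24 to 26 under the other tests, library sizes and filters (24.3% to 37.1% of all genes). It was 20 to 25 when 1 mouse was left out (29.2% to 31.6% of all genes). With the mouse as a replicate block it was 28 under both the likelihood-ratio test (42.7% of all genes) and the quasi-likelihood test (37.6%). The block ended no call. Parp9 was also called with a shared library size per mouse, with both stricter filters and with autosomal genes only. With genes of whole totals only, 16 of the 46 genes remain and 12 were called, 7 with CAST higher and 5 with B6 higher, with a median log2 fold change of 0.27. The median level of 1.15 became 1.44 without the counts of Rn7s1, Rn7s2 and Rn7sk (15.5% to 23.8% of all counts) and 4.18 CPM without division by length.

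The sign changed only for genes that were not called. With the replicate block the log2 fold change was -0.00108 for Eif2ak2 and 0.041 for Ifi204. When 1 mouse was left out, it ran from -0.10 to 0.12 for Eif2ak2, -0.028 to 0.62 for Ifit1, -0.31 to 0.26 for Ifit3b, -0.36 to 0.056 for Ifi204, -0.060 to 0.019 for Parp14, -0.043 to 0.28 for Ifi47, -0.00147 to 0.19 for Isg20 and -0.11 to 0.016 for Stat2. The cause was not tested. Genes with few counts, such as Ifi44, Ifit1, Ifit3b and Oas1a, limit what the depth can show.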
